A study of Gallus gallus with 2 samples.

Results

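Expression of 10 genes of bone morphogenetic protein (BMP) signalling was measured by mRNA sequencing in the wings of 1 chick embryo: the ligand genes BMP2, BMP4 and BMP7, the modulator genes GREM1, BAMBI and SMAD6, and the target genes ID1, ID2, ID3 and ID4. They were listed by symbol, with earlier results of these data known, and all 10 were found once each among the 24356 rows of the deposited table. The embryo overexpressed SOCS2, a suppressor of cytokine signalling. Its right wing had been injected with RCAS-GFP-SOCS2, in which RCAS is an avian retroviral vector able to replicate, and its left wing was the uninjected control. RNA was taken from both wings 5 days after infection, at stage HH 34 of chick development, and each wing gave 1 library. The embryo was selected for its SOCS2 overexpression, and injection cannot be told apart from the right side of the body. Neither wing received the vector without SOCS2, so SOCS2 cannot be told apart from viral infection, GFP or the injection itself.

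BMPs are secreted growth factors that bind paired serine/threonine kinase receptors. The receptors phosphorylate SMAD1, SMAD5 and SMAD9, which enter the nucleus with SMAD4 and switch on target genes, the ID genes among the best known. In the developing limb, BMPs act in cartilage formation, in the death of the cells between the digits and in the control of the apical ridge. Gremlin 1, encoded by GREM1, holds them in check outside the cell. BAMBI, a receptor-like protein without a kinase, and SMAD6, an inhibitory SMAD, act as brakes in the receiving cell and are themselves induced by BMP in many tissues. ID proteins bind basic helix-loop-helix (bHLH) factors and keep them from DNA.

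Expression was given in TPM, a transcript abundance that corrects for length and so allows levels of different genes to be compared. Read depth cannot be recovered from TPM, and a deposited table of raw counts was set aside because its column names match neither wing's library, so no counting interval is given. The 2 columns had the same sum, and 13946 genes, all 10 BMP and ID genes among them, had a mean of at least 1 TPM and a value above 0 in both wings and were compared. The transgene gave a check of the labels: SOCS2 was at 254 TPM in the injected wing, against 54.2 TPM in the uninjected wing, a value in which vector and embryonic transcripts are not separated. With 1 library in each group there was no replicate check and no test. Each gene has a log2 ratio, injected over uninjected, taken on TPM + 0.1, and genes past 1.5-fold (0.58 on the log2 scale) are called higher or lower, by a rule of size on these libraries.

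Of the 10 genes, ID1 and BAMBI (2 of 10) passed 1.5-fold as lower in the injected wing, 0 were higher and 8 lay within that range. Of all genes compared, 7.02% were called in either direction, 4.79% lower and 2.23% higher. The 10 were chosen with earlier results of these data known, so their counts beside these shares are a description. Of the 10, 7 had a mean of 20 to 100 TPM, ID1 and BAMBI among them, and in that range 1.52% of 6064 genes were lower. The log2 ratio was below 0 for 8 of the 10, against 59.7% of all genes compared. Under other settings this count was 7 to 9, since ID2 and ID3 lay so near 0 that their signs turned. The median log2 ratio of the 10 was −0.26, and that of all genes compared was −0.04. Among calls over all genes, 31.8% were higher, or 44.9% after removal of the ratio's trend over abundance.

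**Figure D1:**
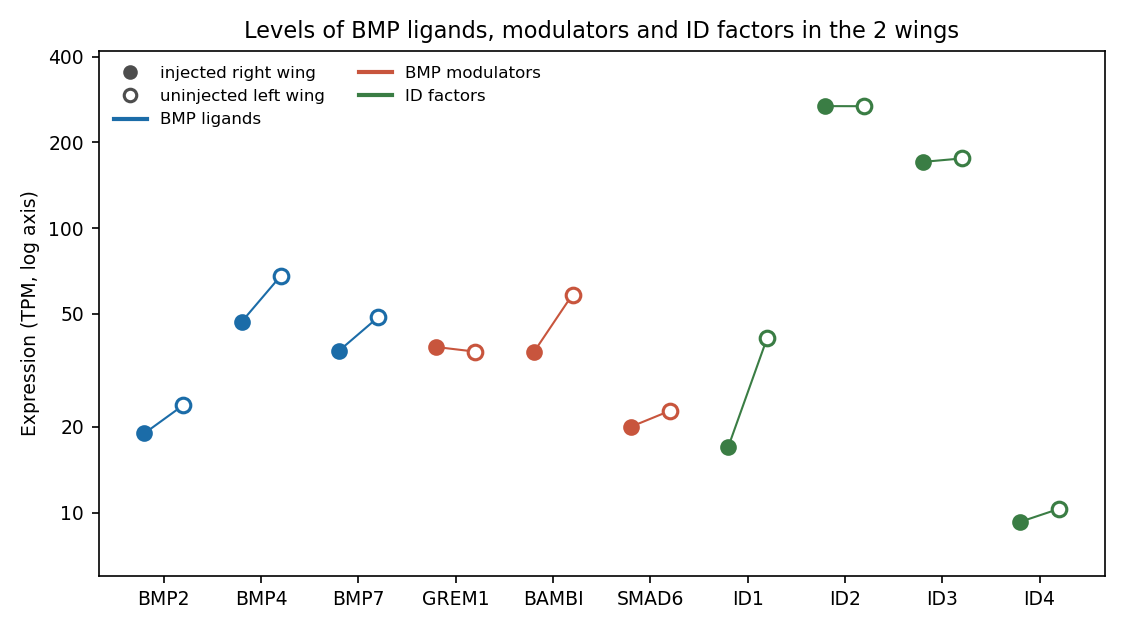
Expression of the 10 genes in TPM on a log axis, with the injected wing (filled) left of the uninjected wing (open) and 1 library per point. ID1 has the steepest line, at 17.0 TPM in the injected wing and 41.0 TPM in the uninjected wing, while ID2 and ID3 stand above 150 TPM in both.

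All 3 ligand genes had lower values in the injected wing, each within 1.5-fold. BMP4, a ligand of the limb mesenchyme and the apical ridge, was at 46.9 TPM in the injected wing, against 67.8 TPM in the uninjected wing. Its log2 ratio of −0.53 fell just short of the 1.5-fold rule, and 114 of the 6064 genes at 20 to 100 TPM had a lower ratio. BMP7, a ligand that can pair with BMP2 or BMP4, was at 37.0 TPM in the injected wing and 48.5 TPM in the uninjected wing, a log2 ratio of −0.39. BMP2, a ligand of the interdigital tissue and of maturing cartilage, was at 19.0 TPM in the injected wing and 23.9 TPM in the uninjected wing (−0.33). These ratios lay close together, so the order of levels, BMP4 over BMP7 over BMP2, was the same in both wings. In the injected wing BMP4 held 45.5% of the summed TPM of the 3 ligands, against 48.4% in the uninjected wing. The summed level itself was 103 TPM in the injected wing, against 140 TPM in the uninjected wing, a log2 ratio of −0.45. In whole-wing RNA, fewer cells of a type and less RNA per cell cannot be told apart.

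The modulators did not share a direction. GREM1, the secreted antagonist of BMP2, BMP4 and BMP7, was at 38.2 TPM in the injected wing and 36.8 TPM in the uninjected wing, a log2 ratio of 0.05. SMAD6, the inhibitory SMAD, was at 20.03 TPM in the injected wing and 22.8 TPM in the uninjected wing (−0.18). BAMBI, the pseudoreceptor, was lower, at 36.5 TPM in the injected wing against 58.4 TPM in the uninjected wing, a log2 ratio of −0.67 or 1.60-fold. In the range of 20 to 100 TPM, 64 genes had a lower ratio than BAMBI. In level, BAMBI stood below GREM1 in the injected wing and above it in the uninjected wing.

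Levels set against each other within a wing do not depend on how a library was scaled. BMP4 stood at 1.23 times the level of GREM1 in the injected wing and at 1.84 times in the uninjected wing. The summed level of BMP2, BMP4 and BMP7 was 2.69 times that of GREM1 in the injected wing, against 3.81 times in the uninjected wing. With NOG, the gene of the antagonist Noggin, added to GREM1, the injected wing had 2.11 and the uninjected wing 2.92. These ratios depend on which antagonists are counted. SOSTDC1, a more abundant antagonist gene, was left out, at 72.1 TPM in the injected wing and 103 TPM in the uninjected wing. The level of BAMBI was 0.780 times that of BMP4 in the injected wing and 0.861 times in the uninjected wing. Such levels are of transcripts and say nothing of the amount of secreted protein.

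The ID genes split, with ID1 lower and the other 3 within 1.5-fold. ID1 was at 17.0 TPM in the injected wing, against 41.0 TPM in the uninjected wing, a log2 ratio of −1.27 or 2.41-fold. Only 102 of all genes compared, and 10 of the 6064 genes at 20 to 100 TPM, had a lower ratio. ID1 lies in that range by its mean of 29.0 TPM, while its injected value alone was below 20 TPM. ID2, the most abundant of the 10 genes, was at 268 TPM in both wings, with a log2 ratio of 0.00. ID3 was at 171 TPM in the injected wing and 176 TPM in the uninjected wing (−0.04). ID4, the lowest of the 10, was at 9.27 TPM in the injected wing and 10.3 TPM in the uninjected wing (−0.15). The ratio of ID1 thus lay 1.12 log2 units below that of the next lowest ID gene, ID4.

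ID1 is a minor member of its family by level, and the family total differed little. The summed level of ID1 to ID4 was 465 TPM in the injected wing and 495 TPM in the uninjected wing, a log2 ratio of −0.09. Without ID1 the sum was 448 TPM in the injected wing and 454 TPM in the uninjected wing (−0.02). ID1 made up 3.65% of the family total in the injected wing, against 8.29% in the uninjected wing, while ID2 made up 57.7% and ID3 36.7% in the injected wing, against 54.1% and 35.5% in the uninjected wing. Set against ID3, ID1 stood at 0.0995 times its level in the injected wing and 0.234 times in the uninjected wing. ID3 stood at 0.637 times the level of ID2 in the injected wing, against 0.655 times in the uninjected wing.

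**Figure D2:**
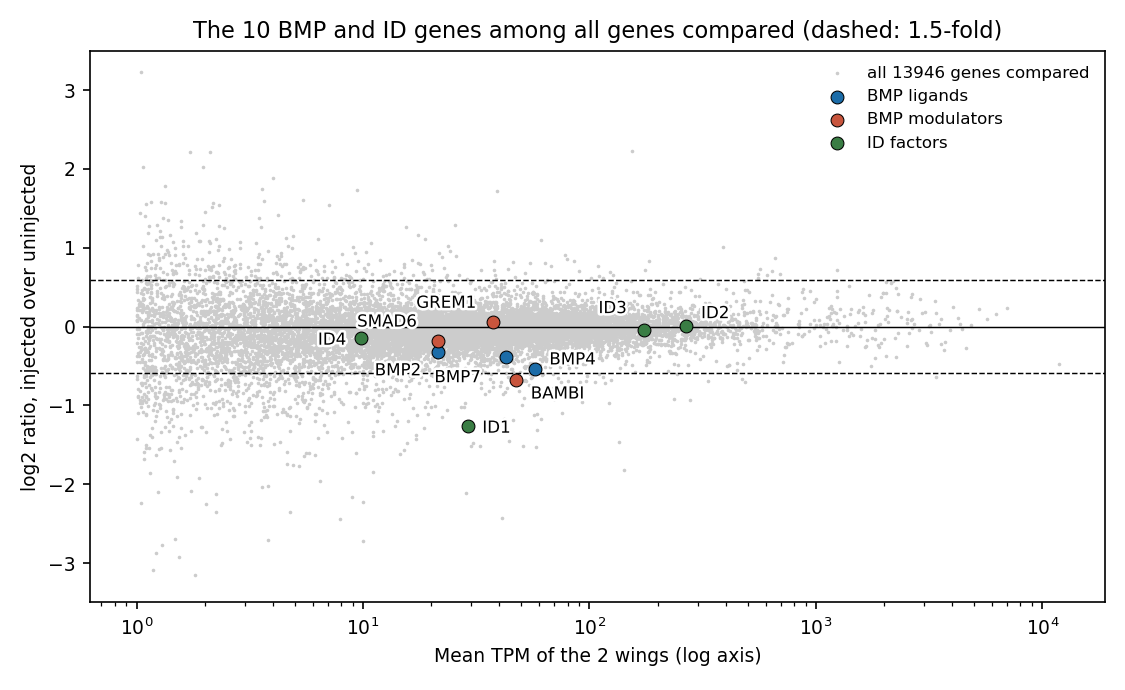
The log2 ratio of injected over uninjected for each gene compared (grey, 1 gene beyond 3.5 log2 units not drawn) against its mean TPM on a log axis, with the 10 BMP and ID genes in colour and dashed lines at 1.5-fold. ID1 (−1.27) lies well below the dashed line, among few genes of like abundance, BAMBI (−0.67) lies just past the line and BMP4 (−0.53) just inside it.

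The rest of the pathway was read from 6 further lists of 83 genes, of which 75 matched a symbol and 70 could be compared. In these lists 8 genes were lower, 2 higher and 60 within 1.5-fold, which is 14.3% called, with 7.02% of all genes compared called. GDF2 and HJV count among the lower genes but reached the minimum mean only through the uninjected wing, so their direction was fixed in advance. GDF6 reached it only through the injected wing and lay within 1.5-fold. The lists were also drawn up with earlier results of these data known, so the share called is a description. The median log2 ratio of the 70 genes was −0.06. The calls were uneven between roles. The 8 lower genes were 5 of 13 that respond to BMP, 2 of 9 further ligands and 1 of 13 receptors and co-receptors. The 2 higher genes were 1 further ligand and 1 bHLH gene.

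Receptor genes lay near 0. Of 13 receptor and co-receptor genes, 12 lay within 1.5-fold, and the list median was −0.06. At the share of 7.02% called of all genes compared, a list of this size would hold few calls. HJV, the gene of hemojuvelin, a BMP co-receptor known from iron metabolism, was the 1 lower member, at 0.971 TPM in the injected wing and 1.72 TPM in the uninjected wing. Its ratio of −0.77 shrank to −0.47, and its call was lost, with a pseudocount of 1 TPM. BMPR1A, BMPR1B and BMPR2, the main receptors of BMP2 and BMP4, had log2 ratios of −0.08, 0.05 and −0.06. All 10 SMAD and intracellular regulator genes compared lay within 1.5-fold, with a median of 0.06. SMAD4 and SMAD7, also listed, matched no symbol and could not be compared. SMAD5 was at 128 TPM in the injected wing and 117 TPM in the uninjected wing, and SMAD1 at 98.1 TPM in the injected wing and 93.2 TPM in the uninjected wing.

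Other secreted modulators held 0 calls among 15 compared, beside 7.02% called of all genes compared, with a median of −0.09. The most abundant were FSTL1, a follistatin-like glycoprotein gene, at 1578 TPM in the injected wing and 1770 TPM in the uninjected wing, and NBL1, an antagonist gene of the DAN family, at 277 TPM in the injected wing and 287 TPM in the uninjected wing. NOG was at 10.5 TPM in the injected wing and 11.2 TPM in the uninjected wing. The widest differences in this list, named after their values were seen, were within 1.5-fold: SOSTDC1, an antagonist gene, was at 72.1 TPM in the injected wing and 103 TPM in the uninjected wing (−0.51), CHRDL1 had a ratio of 0.51 and FSTL3 one of 0.46. CER1 was listed at 0 in both wings.

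Further ligand genes differed both ways. GDF5, a ligand of the forming joint, was lower, at 14.6 TPM in the injected wing against 24.6 TPM in the uninjected wing (−0.75). GDF2, which encodes BMP9, a ligand of endothelial cells, was lower at 0.721 TPM in the injected wing and 1.71 TPM in the uninjected wing (−1.14). GDF7, a ligand related to GDF5, was higher, at 2.62 TPM in the injected wing and 1.18 TPM in the uninjected wing (1.09). The other 6 of 9 ligands compared lay within 1.5-fold and did not share a direction. Their log2 ratios were −0.43 for GDF10, −0.31 for BMP3, −0.01 for BMP5, 0.25 for GDF3, 0.32 for BMP6 and 0.58 for GDF6. At 1 to 5 TPM, where GDF2, GDF7 and HJV lie, as do DKK1 and GATA2 among the responsive genes, 23.2% of genes were called. The list median of −0.01 turned sign between settings, from −0.16 to 0.05.

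Genes known to respond to BMP, other than the ID genes, had 5 of 13 lower, 0 higher and a median of −0.49, beside 4.79% lower among all genes compared. The list was drawn up with earlier results of these data known, so this count is a description. Of the 5, DKK1 and GATA2 lie at 1 to 5 TPM, where 23.2% of genes were called in either direction. The count was 3 under the 2-fold rule and 3 with a minimum mean of 5 TPM. DLX6, at 4.07 TPM in the injected wing and 7.76 TPM in the uninjected wing, reached 5 TPM only through the uninjected wing. Its direction under that filter was thus fixed in advance. The largest difference was that of MSX1, a homeobox gene of the distal mesenchyme, at 7.59 TPM in the injected wing against 22.7 TPM in the uninjected wing (−1.57). DKK1, a secreted WNT antagonist induced by BMP in the limb, was at 2.07 TPM in the injected wing and 6.01 TPM in the uninjected wing (−1.49). GATA2, a zinc finger factor, was at 2.62 TPM in the injected wing and 5.75 TPM in the uninjected wing (−1.11). MSX2 (−0.99) and DLX6 (−0.91) were also lower and are named after their values were seen. HEY1 and ATOH8, which BMP also induces in endothelial cells, had log2 ratios of −0.02 and −0.11, and SOX9, the cartilage regulator, 0.07. TBX3 (0.34) and TBX2 (0.07), named after their values were seen, were also above 0. The rest of the list, DLX5 (−0.57), RUNX2 (−0.49) and GATA3 (−0.42), lay below 0 and within 1.5-fold. In all, 3 of the 13 ratios were above 0 and 10 below. Genes of this list answer to other signals too, so their ratios are not a readout of BMP alone.

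Of 10 E proteins and limb bHLH genes compared, MYF5, a regulator of muscle precursors, was higher, at 25.7 TPM in the injected wing and 11.9 TPM in the uninjected wing (1.11), and 9 lay within 1.5-fold. The E protein genes TCF12 and TCF3, whose products ID proteins bind, were at 1281 and 235 TPM in the injected wing and at 1244 and 221 TPM in the uninjected wing. HAND2, a factor of the posterior limb bud, was at 65.4 TPM in the injected wing and 88.2 TPM in the uninjected wing (−0.43). The list median was 0.06, and 7.02% of all genes compared were called.

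**Figure D3:**
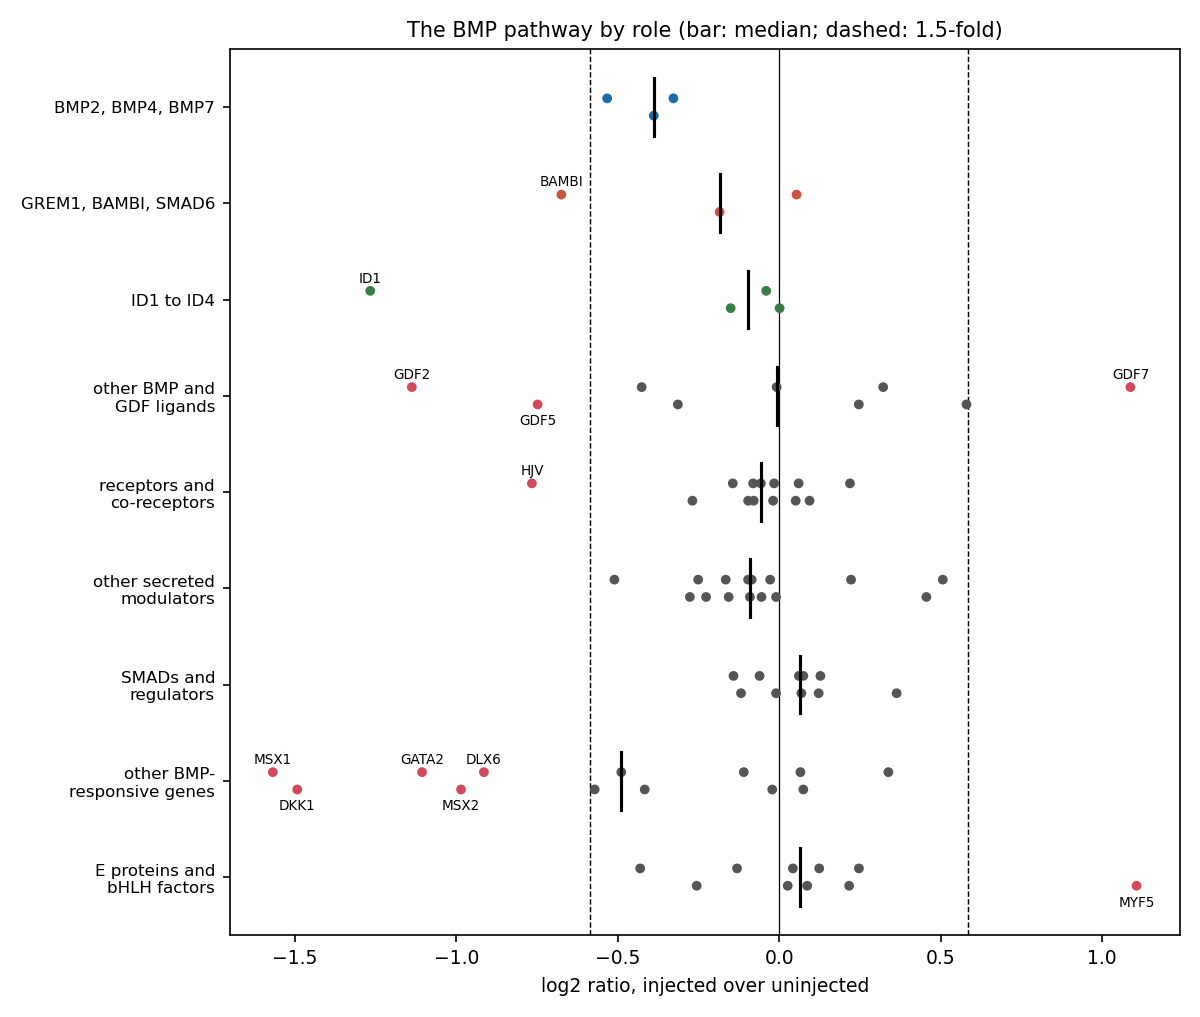
The log2 ratio of injected over uninjected for each gene compared, by role in the pathway, with a bar at each list's median, dashed lines at 1.5-fold and genes past that rule named (red in the further lists). The medians of receptors, SMADs and secreted modulators lie within 0.1 of 0, the secreted modulators spread from −0.51 to 0.51, and the lower genes are ID1, BAMBI, 5 BMP-responsive genes, GDF2, GDF5 and HJV.

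Markers of regions and cell types also differed between the wings, and their part in the ratios of ID1, BAMBI and the ligands was not tested. The counts of markers called stand beside 7.02% called of all genes compared. The marker lists were also drawn up with earlier results of these data known, so their counts are a description. The library label was forelimb bud, and the 6 limb mesenchyme markers, TBX5 and PRRX1 among them, were present in both, summing to 791 TPM in the injected wing and 845 TPM in the uninjected wing with 0 calls. All 6 markers of the distal limb were lower (median −1.52), with a summed level of 163 TPM in the injected wing against 432 TPM in the uninjected wing. MSX1 stands in that list as well as among the BMP-responsive genes. Likewise MYF5, MYOD1 and MYOG stand in the muscle list and among the bHLH genes, so the call of MYF5 enters both. TWIST1, HAND2 and SOX9, all within 1.5-fold, also stand in a marker list and a pathway list. Epidermis markers had 9 of 10 ratios below 0, 1 of them called lower, with a summed level of 593 TPM in the injected wing and 724 TPM in the uninjected wing. Of 6 apical ridge markers, 2 of the 4 compared were higher (1 under the 2-fold rule). Their levels were low, and with a minimum mean of 5 TPM only 1 was left to compare, also higher. The summed level of the 6 was 22.2 TPM in the injected wing and 12.5 TPM in the uninjected wing, where DLX2 was listed at 0. In the other lists, the summed level was 2933 TPM in the injected wing and 2441 TPM in the uninjected wing for cartilage (8 of 9 ratios above 0, 1 called higher), 4853 TPM in the injected wing and 3934 TPM in the uninjected wing for muscle (8 of 9 above 0, 2 called higher), and 1539 TPM in the injected wing and 1814 TPM in the uninjected wing for erythroid cells (7 of 7 below 0, 3 called lower). Schwann cell and nerve markers had 4 of 6 higher (2 with a pseudocount of 1 TPM, 1 under the 2-fold rule) and ELAVL4 at −0.26, with sums of 81.3 TPM in the injected wing and 63.5 TPM in the uninjected wing. Under the 2-fold rule 0 cartilage, 1 muscle, 1 erythroid, 0 epidermis and 5 distal limb markers were called. The cartilage call was also lost with a pseudocount of 1 TPM or a minimum mean of 5 TPM, and that minimum left 2 erythroid calls. Macrophage markers held 0 calls among 6, with sums of 119 TPM in the injected wing and 125 TPM in the uninjected wing. Endothelial markers summed to 416 TPM in the injected wing and 422 TPM in the uninjected wing, with 0 of 8 called and ratios from −0.16 to 0.10.

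**Figure D4:**
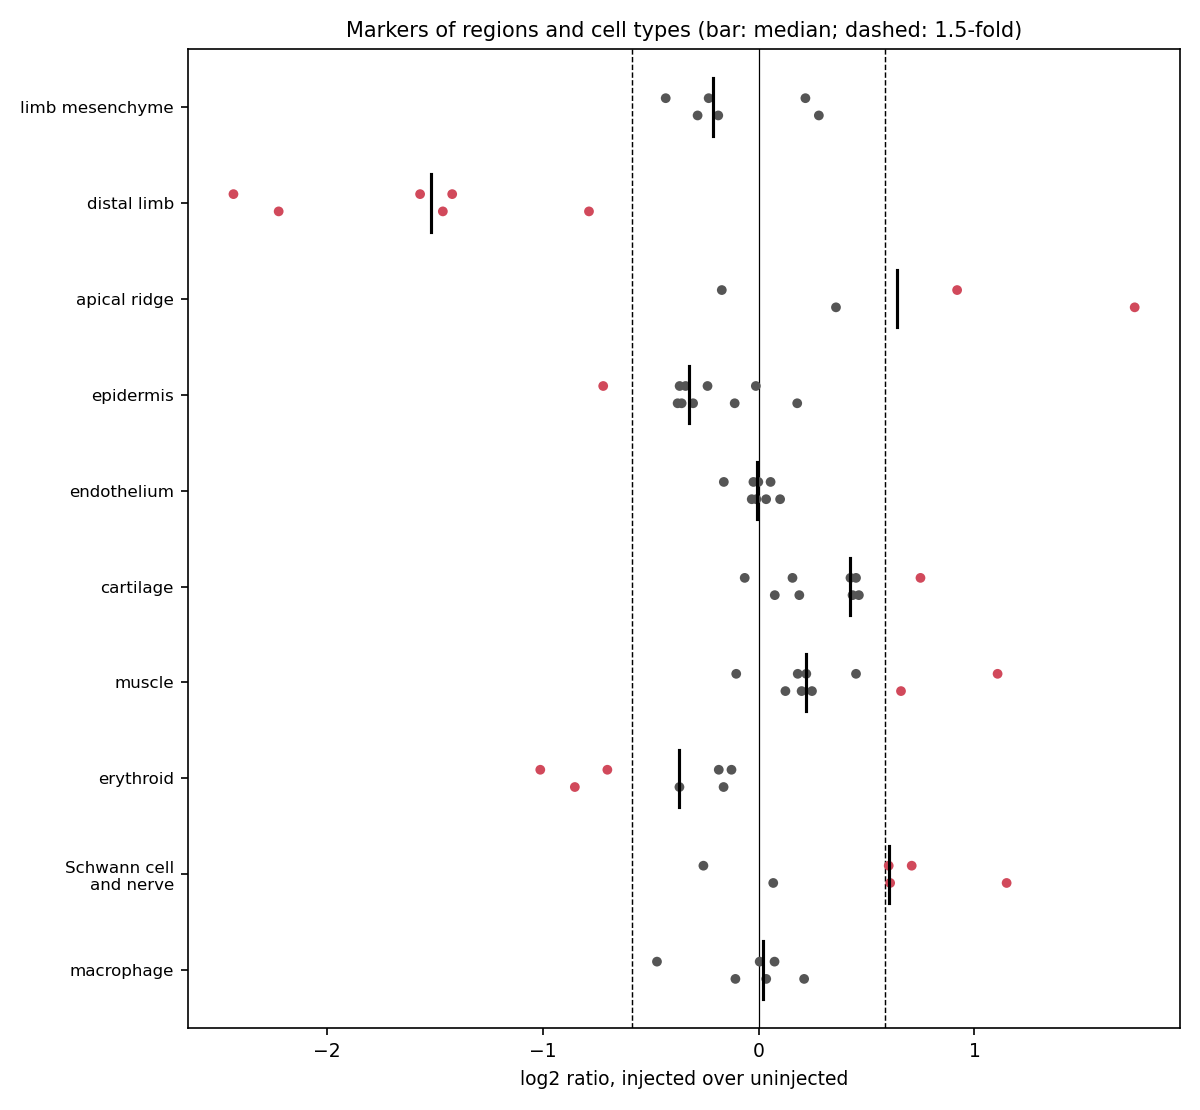
The log2 ratio of injected over uninjected for each marker gene compared, by region or cell type, with a bar at each list's median, dashed lines at 1.5-fold and genes past that rule in red. Distal limb markers lie lowest (median −1.52), epidermis markers mostly below 0 (−0.32) and endothelial markers at 0 (−0.01).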

How the data were processed

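The values were TPM as the authors deposited them, in 1 column per wing. Per the labels' protocols, RNA was extracted from each wing with DNase treatment and 1 µg went into an NEBNext Ultra library read in pairs. Build GRCg6a and the tools HISAT2 2.2.1 and StringTie 2.1.7 are credited to the submitters' processing notes, with no role, settings or annotation release. A second deposited table, of raw counts, was not used, since its 2 columns match neither sample's title.

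Symbols were read from the row identifiers. Short RNAs (1311 rows) were left out. Genes averaging at least 1 TPM and above 0 in both wings were compared as log2(TPM + 0.1), injected minus uninjected, which understates the change of low genes. With 1 library per group no p-value, SD or SE was computed. The members and lists were chosen with earlier results of these data known, so their counts are not independent evidence. List genes were matched by symbol alone, 158 of 176 entries, and HBBR, with more than 1 row, was left out. In each list the text could name up to 3 called genes in each direction or, with 0 calls, the 2 most abundant. Other genes are named for their role, to complete a list or, where stated, after their values were seen. The code was tested on simulated data. The alternatives were 2 other pseudocounts, 3 scalings, 2 filters, a 2-fold rule, removal of the abundance trend, keeping short RNAs and symbols only. No sequence was used here. Computations used Python 3.11.15, pandas 2.3.3, NumPy 2.4.6 and matplotlib 3.10.9.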

Additional observations from a re-analysis of the deposited data

How the results depend on the processing

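ID1 stayed lower under all 11 alternatives, with log2 ratios from −1.27 to −1.21. BAMBI, between −0.68 and −0.63, kept its call under 10 and lost it under the 2-fold rule, which left 1 of the 10 genes called. BMP4, between −0.53 and −0.49, was called under 0 of the 11. GREM1 stayed above 0, from 0.05 to 0.10, while ID2 (−0.00 to 0.05) and ID3 (−0.04 to 0.01) turned sign under some settings. Among the further pathway genes, 10 were called as reported, 5 with a minimum mean of 5 TPM and 6 under the 2-fold rule. DLX6, among those called with a minimum mean of 5 TPM, reached it only through the uninjected wing. Over all genes, 979 were called as reported, 618 with a pseudocount of 1 TPM, 2129 with no filter on the mean, 414 with a minimum mean of 5 TPM, 277 under the 2-fold rule and 539 among rows with a symbol. The filters and the symbol rule change which genes are compared as well as how many. The number compared was 13946 as reported, 16844 with no filter, 11515 with a minimum mean of 5 TPM and 10976 with a symbol. The 2-fold rule is stricter, and the pseudocount shrinks the ratios of low genes. No scaling moved the median of all genes by more than 0.05 on the log2 scale. No paired analysis was possible because each wing gave 1 library and the result comes from no test. The raw counts deposited under other column names were not used, so no counting error stands beside any ratio.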

Other observations

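The genes that lie next to the 10 BMP and ID genes were read as a description of their surroundings, using a RefSeq gene table of assembly GRCg7b for gene order alone. Of 60 protein-coding neighbours, 3 on each side of each gene, 43 could be compared and 41 lay within 1.5-fold, 1 was lower and 1 higher, beside 7.02% called of all genes compared. Next to ID1, REM1, which encodes a small GTPase and lies 2 genes away, was lower at 11.2 TPM in the injected wing against 18.1 TPM in the uninjected wing (−0.68), while HM13 (−0.14), BCL2L1 (−0.19) and TPX2 (0.03) were within 1.5-fold. The 3 neighbours of BAMBI that could be compared had log2 ratios of −0.04 for MTPAP, 0.05 for WAC and −0.29 for MPP7. FMN1, the gene beside GREM1, was at 10.7 TPM in the injected wing and 10.2 TPM in the uninjected wing. RNF144B, beside ID4, was higher at 1.69 TPM in the injected wing and 0.511 TPM in the uninjected wing (1.55); it passed the minimum mean only through the injected wing and lies at 1 to 5 TPM, where 23.2% of genes were called. These genes were looked up after the ratios of the 10 were known.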
